A study of Mus musculus with 2 samples.

Results

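The PI3K and AKT pathway components described here are 9 genes, Pik3cd, Pik3r1, Pik3ip1, Inpp5d, Pdpk1, Akt1, Akt2, Rictor and Mtor, taken by symbol from the 32285 gene identifiers of both count matrices. All 9 symbols were present, each once. Their transcripts were counted at the 3′ end, cell by cell in droplets, in cells sorted from tumour tissue of C57BL/6 mice aged 8 to 12 weeks. Most of these were regulatory T cells (Tregs), the Foxp3-dependent CD4 T cells that hold back immune responses. One library came from wild-type animals (label JMJD1CWT, here WT) and 1 from animals with Jmjd1c, which encodes a JmjC-domain histone demethylase, deleted in Tregs (label JMJD1CTregcKO, here cKO). The labels do not give the tumour, the number of animals or the driver of the deletion. Each group is 1 library, so no difference between the libraries has a replicate check and none was tested across animals. Intervals are at 95% and reflect counting error alone.

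Class I phosphoinositide 3-kinases (PI3K) put a phosphate on a membrane lipid when antigen receptors, costimulatory receptors or cytokine receptors are engaged. The lipid draws the kinase AKT to the membrane, where PDK1 (the product of Pdpk1) and the mTOR complex that contains Rictor phosphorylate it. Active AKT keeps FOXO transcription factors out of the nucleus and feeds into mTOR signalling. In Tregs the pathway is kept under restraint by phosphatases, and PD-1 (Pdcd1) dampens it in T cells in general. The question put to these data was whether the transcripts of the pathway differed when Jmjd1c was deleted in Tregs. AKT activity is set by phosphorylation, which was not measured here.

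FOXO factors bind DNA with the core GTAAACA. This core and its reverse complement TGTTTAC were searched, on both strands and with no other motif, in the RefSeq promoter windows (250 bases before to 50 after a start site, GRCm38.p6) of the 9 genes. It was found in 1 of 17 windows (5.88%), against 3.65% of all 32851 windows of the same length. The match lay in 1 of the 2 Akt1 windows and began 161 bases before the start site. The stretch around it, at chr12:112675027-112675056 on the minus strand, is printed below. It is shown because Akt1 encodes the kinase that acts on FOXO factors, with the core in capitals.
Akt1: atctaccctctTGTTTACactcctggtgaa
A match of letters is not a shown binding site.

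The WT matrix held 3905 barcodes and 49063944 UMIs (the molecular tags by which captured transcripts are counted once) and the cKO matrix 4105 barcodes and 37666195 UMIs. After removal of barcodes with under 500 genes or with 10% or more mitochondrial UMIs, 3842 and 4026 cells were kept, whose median depth was 9088 UMIs in WT and 6953 in cKO. Of the barcodes, 2 occurred in both libraries. The WT library carried Xist in 97.1% of its cells and no Y-linked transcript, and the cKO library Xist in 0.273% and Y-linked transcripts in 74.6%, so they differ in sex. Sex and genotype cannot be told apart in any comparison below. Jmjd1c itself stood at 88.6 CPM (UMIs of the gene per 1000000 UMIs summed over the cells) in WT and 74.1 CPM in cKO Tregs, a ratio of 0.836 (0.789 to 0.886). Its ratio was 1.01 (0.856 to 1.19) in CD8 T and 0.676 (0.572 to 0.800) in myeloid cells, classes described below. Tags from a 3′ end may lie outside the deleted exons, so these values do not check the genotype.

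Cells were put in classes by their UMIs. The Treg class required at least 1 UMI of Cd3e and Cd3g, at least 6 of Foxp3, Il2ra, Ikzf2 and Ctla4 together, at most 1 of Cd8a and Cd8b1 and at most 2 of Lyz2 and C1qa. It held 3240 WT cells (84.3%, median depth 8546 UMIs) and 2834 cKO cells (70.4%, median depth 6427 UMIs). The rule has a threshold: 33 WT and 59 cKO cells of the Treg class had exactly 6 marker UMIs, and 26 and 51 cells with 5 fell just outside. The CD8 T class (at least 3 UMIs of Cd8a and Cd8b1) held 213 WT and 407 cKO cells. The myeloid class (at least 10 UMIs of Lyz2 and C1qa) held 103 and 321 cells.

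These other classes were mixed, more so in WT. In the CD8 T class 84.5% of WT and 48.6% of cKO cells also had 6 or more UMIs of the Treg markers. In the myeloid class 60.2% of WT and 32.1% of cKO cells had a Cd3e or Cd3g UMI. Median depth was 18131 UMIs in WT CD8 T cells and 20622 in WT myeloid cells, far above the Treg class of the same library. Doublets with Tregs, free RNA and shared expression were not separated. For the 9 genes, values in these classes are therefore set beside those for CD8 T cells with at most 5 Treg-marker UMIs (33 WT and 209 cKO cells) and for myeloid cells with 0 UMIs of Cd3e and Cd3g (41 and 218 cells), subsets chosen after seeing the data. Within the Treg class, the summed level of 8 macrophage markers was 20.4 CPM in WT and 53.9 CPM in cKO, and that of 3 NK markers 1.05 and 10.8 CPM. In Treg-class cells with 0 NK marker UMIs the log2 ratio of cKO to WT (defined below) was -0.48 for Pik3r1, 0.30 for Akt2 and 0.26 for Inpp5d. In those with 0 UMIs of Cd8a, Cd8b1, Lyz2 and C1qa it was -0.46, 0.30 and 0.22. These stand beside -0.45, 0.30 and 0.25 in the whole class.

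In Treg-class cells none of the 9 genes differed between the libraries by 1.5-fold or more. Of the 9, 7 passed the filter of a mean of at least 20 CPM, and 0 of these 7 lay 1.5-fold higher or lower on the scale log2((CPM cKO + 5)/(CPM WT + 5)). Among all 5158 genes that passed, 5.54% lay 1.5-fold higher and 3.84% lay 1.5-fold lower in cKO (3.96% and 5.88% when ribosomal and mitochondrial genes were left out of the scaling). The median log2 ratio of the 7 genes was 0.09, beside 0.02 over all genes tested. Pik3r1 and Mtor stood lowest in cKO against WT. Akt2, Inpp5d and Pik3cd stood above WT, and Akt1, Rictor and Pik3ip1 stood close to equal.

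**Figure D1:**
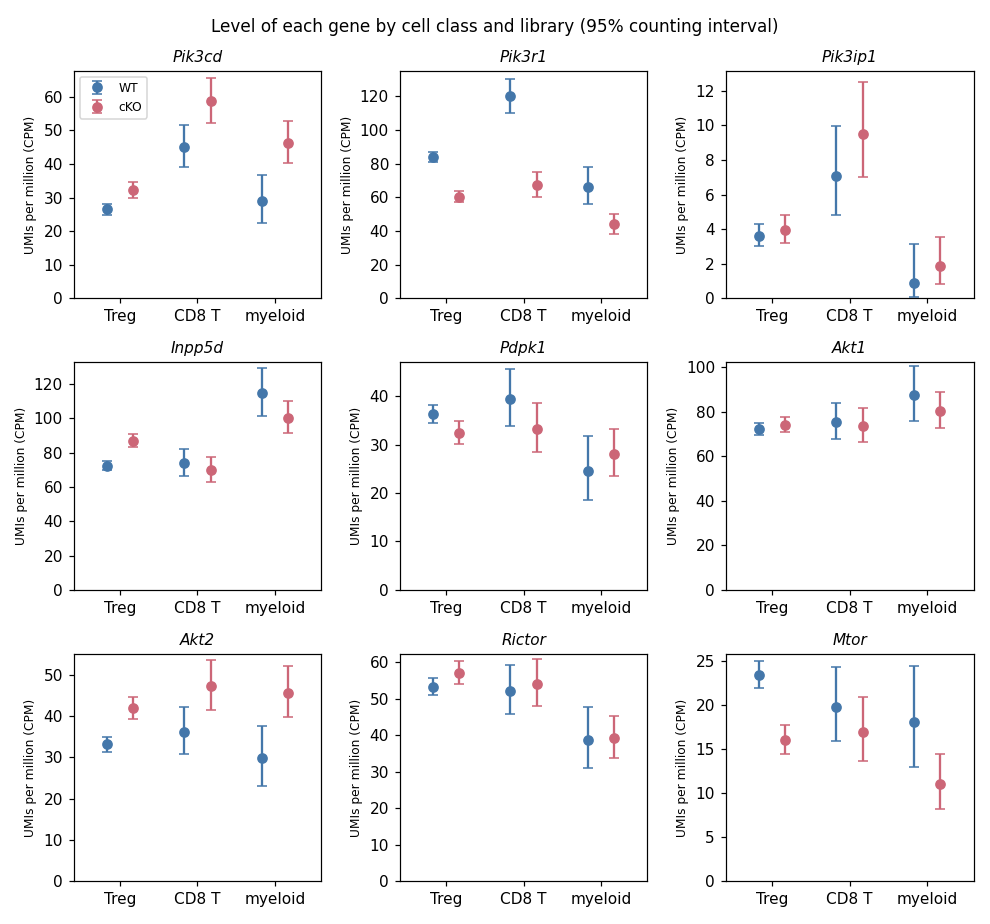
Level of each gene in CPM (vertical axis from 0) in the Treg, CD8 T and myeloid classes, for WT (blue) and cKO (red). Bars are 95% Poisson intervals for counting error only. Pik3r1 is lower in cKO in each whole class, while Akt1 and Rictor overlap between the libraries in each class. The CD8 T and myeloid classes are mixed with cells that carry marks of Tregs or T cells.

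Among the PI3K subunits, Pik3r1 encodes the regulatory subunit p85 alpha and its shorter forms, which hold the catalytic subunit stable and quiet until receptors are engaged (chromosome 13, 101680563 to 101768217, minus strand, mm10). It stood at 84.0 CPM in WT (3202 UMIs) and 60.3 CPM in cKO (1420 UMIs) Treg-class cells. The ratio of cKO to WT was 0.718 (0.674 to 0.765), and 7.02% of genes tested had a log2 ratio as low or lower. Tags from the 3′ end do not tell the forms of this gene apart.

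Pik3cd encodes p110 delta, the catalytic subunit that predominates in lymphocytes (chromosome 4, 149649168 to 149702571, minus strand). In Treg-class cells it stood at 26.5 CPM in WT and 32.2 CPM in cKO. The ratio was 1.22 (1.11 to 1.34). Pik3cd and Pik3r1 thus stood on opposite sides of WT in the whole class. In cells with 5000 to 10000 UMIs the Pik3cd ratio was 1.12 (0.956 to 1.31), an interval that held 1.

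Of the genes that restrain the pathway, Inpp5d encodes SHIP1, a lipid phosphatase of blood cells that removes a phosphate from the PI3K product (chromosome 1, 87620312 to 87720507, plus strand). It stood at 72.3 CPM in WT and 86.9 CPM in cKO Treg-class cells, a ratio of 1.20 (1.13 to 1.27). Pik3ip1 encodes a membrane protein that binds and inhibits PI3K (chromosome 11, 3330401 to 3342971, plus strand). It was scarce, at 3.62 CPM from 138 UMIs in WT and 3.95 CPM from 93 UMIs in cKO. Its ratio of 1.09 had an interval from 0.830 to 1.43, so that a difference of up to these bounds was not detectable at this depth.

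The kinases between the lipid and FOXO came next. Pdpk1 (chromosome 17, 24073680 to 24150924, minus strand) stood at 36.3 CPM in WT and 32.5 CPM in cKO Treg-class cells, a ratio of 0.894 (0.817 to 0.977). Akt1 (chromosome 12, 112653821 to 112674884, minus strand), the broadly expressed form of AKT, stood at 72.1 CPM and 74.1 CPM, a ratio of 1.03 (0.968 to 1.09). Akt2 (chromosome 7, 27591552 to 27640826, plus strand), the form known best for insulin signalling, stood at 33.1 CPM and 41.9 CPM. The Akt2 ratio of 1.27 (1.16 to 1.38) was the highest of the 9 genes, and 17.5% of genes tested had a log2 ratio as high or higher.

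Of the mTOR genes, Rictor, the scaffold of the complex that phosphorylates AKT (chromosome 15, 6708379 to 6800401, plus strand), stood at 53.2 CPM in WT and 57.2 CPM in cKO, a ratio of 1.07 (1.002 to 1.15). Mtor, the kinase shared by both mTOR complexes (chromosome 4, 148448611 to 148557683, plus strand), stood at 23.4 CPM and 16.1 CPM. Its mean of 19.8 CPM lay just under the filter. The Mtor ratio of 0.687 (0.607 to 0.775) was the lowest of the 9 genes, and its log2 ratio was -0.43. The annotation has an intronic transcript on the same strand within Pdpk1, whose reads may be hard to part from those of Pdpk1. The genes of the matrix that overlap Mtor and Pik3ip1 lie on the opposite strand.

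**Figure D2:**
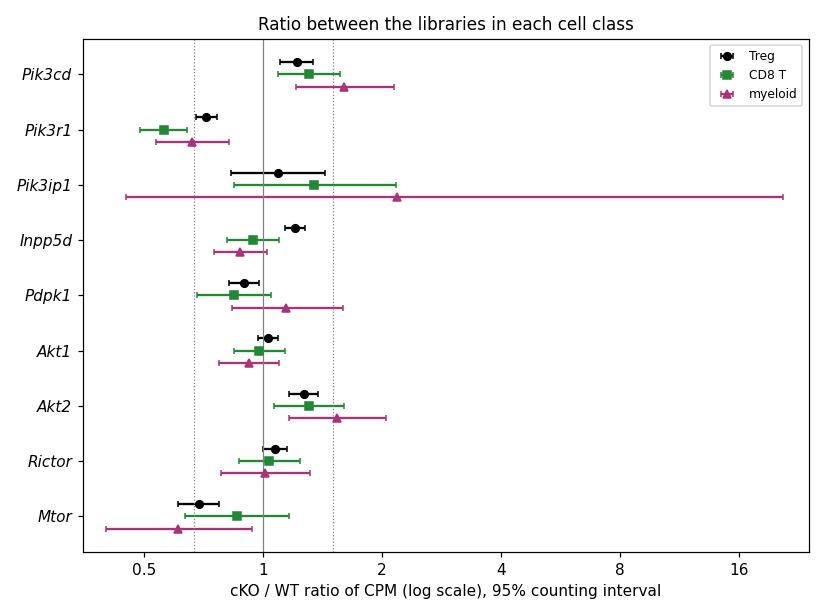
Ratio of CPM in cKO to WT for each gene on a log axis, in the Treg (circles), CD8 T (squares) and myeloid (triangles) classes, with exact 95% counting intervals. The grey line marks a ratio of 1 and dotted lines mark 1.5-fold. Akt2 and Pik3cd lie right of 1 and Pik3r1 left of 1 in all 3 whole classes, and Pik3ip1 has wide intervals. The CD8 T and myeloid classes are mixed. In CD8 T cells without Treg marks (not shown) Akt2 came to 1.12, Pik3cd to 0.813 and Pik3r1 to 0.926, with intervals that held 1.

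The mixed CD8 T and myeloid classes were read next. In the CD8 T class 1 of the 7 genes that passed the filter, Pik3r1, lay 1.5-fold lower and 0 lay 1.5-fold higher (6.78% and 3.85% of genes tested). Pik3r1 stood at 120.0 CPM in WT and 67.3 CPM in cKO CD8 T cells, a ratio of 0.561 (0.489 to 0.643). In the myeloid class 1 of 7 genes, Pik3cd, lay 1.5-fold higher and 0 lower (4.36% and 4.19% of genes tested). Pik3cd stood at 28.9 CPM in WT and 46.3 CPM in cKO myeloid cells, a ratio of 1.60 (1.21 to 2.14). Across the 3 classes the ratio of Akt2 was 1.27, 1.31 and 1.53, and that of Pik3cd 1.22, 1.30 and 1.60.

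Mtor had ratios of 0.687, 0.859 and 0.610 in the Treg, CD8 T and myeloid classes, with an interval that held 1 in the CD8 T class (0.633 to 1.16). Inpp5d was above WT in the Treg class alone, with ratios of 0.944 (0.811 to 1.10) in CD8 T and 0.876 (0.753 to 1.02) in myeloid cells. In the subsets without marks of Tregs or T cells, the ratio of Mtor was 1.10 (0.509 to 2.73) in CD8 T cells, on the other side of 1. That of Inpp5d was 0.540 (0.395 to 0.746) in CD8 T and 0.907 (0.707 to 1.17) in myeloid cells. Whether these ratios differ between classes was not tested.

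Other values moved in these subsets as well. The ratio of Pik3r1 became 0.926 (0.618 to 1.43) in CD8 T cells, from 30 WT UMIs, and 0.921 (0.633 to 1.37) in myeloid cells, from 36 WT UMIs. Pik3cd came to 0.813 (0.556 to 1.22) in CD8 T cells and 1.72 (1.08 to 2.86) in myeloid cells. Mtor stayed low in myeloid cells, at 0.399 (0.214 to 0.762). Akt2 had ratios of 1.12 (0.658 to 2.003) and 1.35 (0.869 to 2.18). The Pik3r1 intervals of both subsets held 1 and also the Treg-class ratio of 0.718, so they do not tell a lower level from an equal one. The myeloid interval also held the whole-class ratio of 0.662, while the CD8 T interval lay above the whole-class ratio of 0.561.

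In the same CD8 T subset, Pdpk1 stood at 87.3 CPM in WT (37 UMIs) and 31.8 CPM in cKO, Inpp5d at 136.9 and 73.9 CPM, and Pik3ip1 at 40.1 CPM (17 UMIs) and 8.33 CPM. Each rests on 33 WT cells. In this subset 24.2% of all genes tested lay 1.5-fold lower and 15.9% higher.

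Between cell classes of one library, Pik3cd stood 1.70-fold (1.45 to 1.98) higher in the CD8 T class than in the Treg class in WT, and 1.82-fold (1.59 to 2.08) higher in cKO. It was the 1 gene of the 9 past 1.5-fold in both libraries, where 1.46% of 4878 genes tested were higher and 3.38% lower. Pik3ip1, under the filter, was higher in CD8 T cells too, at 7.05 against 3.62 CPM in WT and 9.48 against 3.95 CPM in cKO. Akt1, Akt2, Pdpk1, Rictor and Mtor had intervals that held 1 in both libraries. In CD8 T cells without Treg marks the levels were further from those of the Treg class for Pik3cd (82.6 CPM in WT and 67.1 CPM in cKO) and, in WT, for Pik3ip1, Pdpk1 and Inpp5d, as given above.

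Against myeloid cells, 0 of the genes passed 1.5-fold in both libraries in either direction (15.3% of 5014 genes tested were higher and 16.9% lower in myeloid cells). Inpp5d was higher in myeloid cells, 1.59-fold (1.39 to 1.80) in WT and 1.16-fold (1.04 to 1.28) in cKO. Rictor was lower, at 0.729 (0.583 to 0.900) and 0.685 (0.585 to 0.799) of its Treg level, and Pik3r1 at 0.790 and 0.729. In myeloid cells without T cell marks, Inpp5d stood at 111.1 CPM in WT and 100.8 CPM in cKO, Rictor at 27.4 and 33.2 CPM, and Pik3r1 at 49.4 and 45.5 CPM. Pik3ip1 stood at 0.862 CPM in WT myeloid cells from 2 UMIs and 1.88 CPM in cKO from 9 UMIs. Cd3e, a T cell gene, was detected in 23.5% and 20.4% of the same myeloid cells after thinning, with median depths of 20641.5 and 13889 UMIs, so Pik3ip1 there cannot be read as expression.

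To set detection side by side at one depth, 4100 UMIs were drawn from each cell. Shallower cells, 111 WT and 366 cKO of the Treg class, did not enter. The share with a Pik3r1 UMI was 28.7% in WT (27.1 to 30.3) and 21.4% in cKO (19.8 to 23.1). Mtor came to 8.31% (7.37 to 9.33) and 6.00% (5.09 to 7.01). For Akt2 the shares were 12.8% (11.7 to 14.1) and 15.4% (14.0 to 16.9), and for Pik3cd 10.4% and 12.7%. These 4 genes kept the order of their CPM.

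The share for Inpp5d was 27.2% in WT and 30.3% in cKO, for Akt1 22.2% and 24.2%, for Rictor 19.8% and 21.7%, and for Pdpk1 13.9% and 13.0%. Pik3ip1 came to 1.73% and 1.74%. Without thinning the shares were 50.2% and 32.8% for Pik3r1, 45.5% and 39.0% for Akt1, 30.3% and 27.0% for Akt2, 23.8% and 21.2% for Pik3cd and 22.4% and 12.3% for Mtor. For Inpp5d they were 51.6% and 48.3%, for Rictor 39.8% and 33.5%, for Pdpk1 31.5% and 22.5%, and for Pik3ip1 3.98% and 3.11%. Before the draw the WT cells that entered were deeper (median 8752 UMIs) than the cKO cells (6982). No class in these libraries should lack the ubiquitous kinases, so no free-RNA background could be set for them.

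Treg-class cells were then split into ranges of counts: cycling cells (at least 2 UMIs of Mki67 and Top2a), else cells with at least 3 Gzmb UMIs, else cells with at least 3 UMIs of Klf2 and S1pr1, which mark recirculating T cells, and the rest. The Gzmb-high range held 19.4% of WT and 69.0% of cKO Treg-class cells, the cycling range 21.1% and 12.5%, and the Klf2 or S1pr1 range 7.69% and 5.43%. The Klf2 or S1pr1 range holds only cells left after the cycling and Gzmb cuts. Its share is thus not that of all cells with these UMIs. Over the whole Treg class Klf2 stood at 87.3 CPM in WT and 247 CPM in cKO, and S1pr1 at 16.2 and 28.2 CPM. These sets of cells are ranges, not cell types: 103 WT and 73 cKO cells had exactly 3 Gzmb UMIs and 167 and 86 had 2. With 2 UMIs of Klf2 and S1pr1 there were 244 and 306 cells, and with 1 UMI of Mki67 and Top2a 594 and 441. These counts are over all Treg-class cells, before the order of the ranges was applied. Cycling cells were also the deepest, with medians of 18151 and 13619 UMIs.

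**Figure D3:**
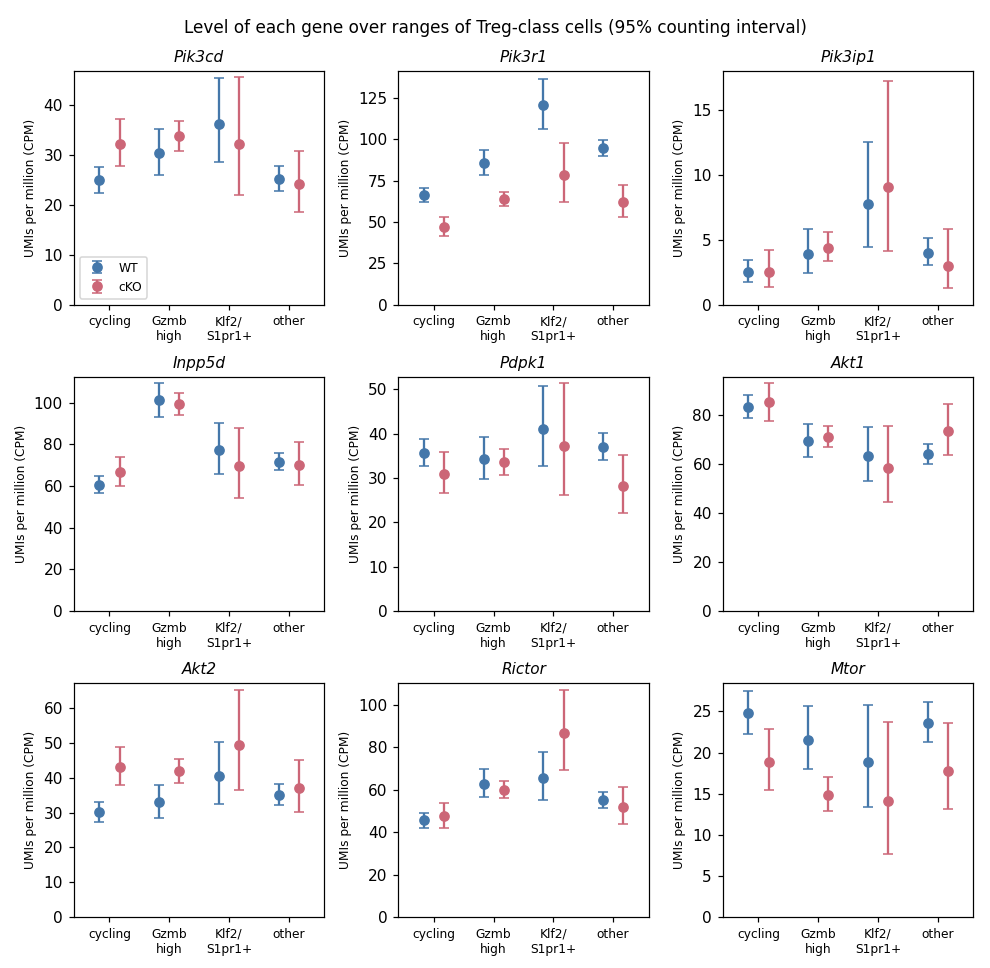
Level of each gene in CPM (vertical axis from 0) in 4 ranges of Treg-class cells, for WT (blue) and cKO (red), with 95% Poisson intervals for counting error. Inpp5d peaks in Gzmb-high cells at nearly the same level in both libraries, and Pik3r1 is lower in cKO in every range.

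Inpp5d was highest in the Gzmb-high range. It stood at 101.1 CPM in WT and 99.3 CPM in cKO Gzmb-high cells, against 60.6 and 66.5 CPM in cycling cells and 71.7 and 70.1 CPM in the remaining cells. Within Gzmb-high cells the ratio of cKO to WT was 0.982 (0.892 to 1.08). With the 4 ranges weighted equally, the log2 ratio of Inpp5d over the Treg class went from 0.25 to -0.02. That weighting changes the share of all 4 ranges at once. In cells with 5000 to 10000 UMIs the Inpp5d log2 ratio was 0.13. The part of range shares and of depth in the difference was not tested.

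Pik3r1 passed 1.5-fold lower in the Klf2 or S1pr1 range, and no other member passed 1.5-fold either way in any range. The background of genes higher and lower was 4.81% and 3.45% in cycling, 4.35% and 3.56% in Gzmb-high, 7.41% and 8.25% in Klf2 or S1pr1 and 4.55% and 4.35% in remaining cells. Pik3r1 was below WT in each of the 4 ranges, with ratios of 0.708 (0.616 to 0.813) in cycling, 0.747 (0.669 to 0.834) in Gzmb-high, 0.650 (0.498 to 0.842) in Klf2 or S1pr1 and 0.657 (0.557 to 0.771) in remaining cells. Mtor had ratios of 0.762, 0.688, 0.748 and 0.755 in the same order, with an interval below 1 in the first pair. Akt2 had ratios of 1.43 (1.22 to 1.68) in cycling and 1.27 (1.08 to 1.505) in Gzmb-high cells, but 1.06 (0.846 to 1.31) in the remaining cells. Pik3cd was above WT in cycling cells (1.29; 1.08 to 1.55), and its intervals held 1 in the other ranges.

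Across ranges within a library, Pik3r1 was 1.82-fold (1.58 to 2.10) higher in Klf2 or S1pr1 cells than in cycling cells in WT, and 1.67-fold (1.28 to 2.16) in cKO. It was the 1 gene of the 9 past 1.5-fold there in both libraries, where 6.68% of genes tested were higher and 7.64% lower. Pik3ip1, under the filter, had ratios of 3.11 (1.61 to 5.74) and 3.64 (1.39 to 9.03) in the same comparison. Rictor was 1.44-fold and 1.82-fold higher. Akt1 went the other way, at 0.760 (0.629 to 0.910) and 0.687 (0.514 to 0.903) of its level in cycling cells. Median depth was 6811 UMIs in WT and 5419 in cKO Klf2 or S1pr1 cells, against 18151 and 13619 in cycling cells. Range and depth were not separated here. Between Gzmb-high and cycling cells 0 of the 9 passed 1.5-fold in both libraries (4.79% of genes tested higher and 8.05% lower), with Inpp5d nearest at 1.67-fold and 1.49-fold. Between Gzmb-high and Klf2 or S1pr1 cells 0 of the 9 did so (1.33% higher and 1.23% lower).

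The level of most of the 9 genes moved with the depth of a cell. Akt1 stood at 52.7 CPM in WT Treg-class cells with 5000 to under 10000 UMIs, at 70.4 CPM with 10000 to under 20000 and at 92.5 CPM (87.4 to 97.9) with 20000 or more. In cKO the same bands gave 66.3, 77.8 and 94.8 CPM. Pik3r1 ran the other way, from 114.3 CPM under 5000 UMIs through 101.4 and 82.5 to 66.9 CPM in WT, and from 76.4 through 62.6 and 57.1 to 48.1 CPM in cKO. Inpp5d went from 103.4 to 52.9 CPM and Rictor from 75.4 to 41.5 CPM between the lowest and the highest band in WT, and from 109.9 to 55.3 and 77.3 to 39.0 CPM in cKO.

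**Figure D4:**
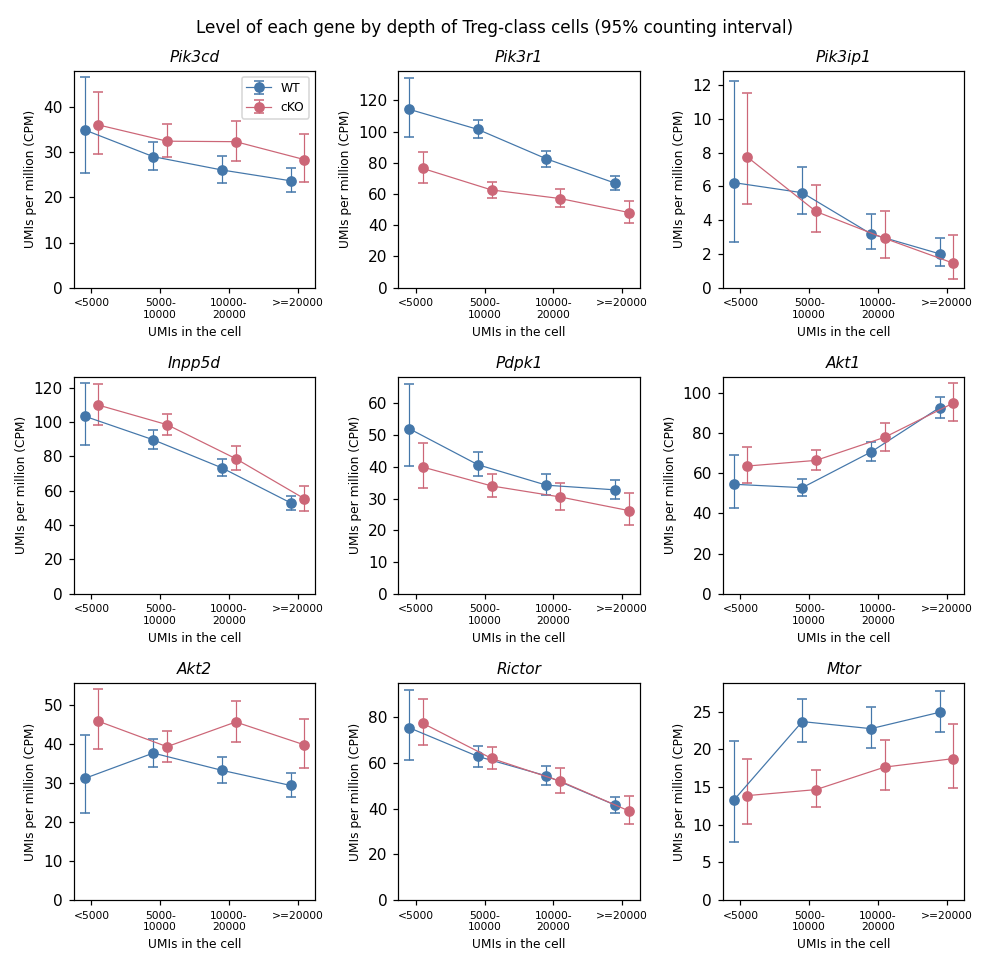
Level of each gene in CPM (vertical axis from 0) in Treg-class cells by the number of UMIs in the cell (horizontal axis, 4 bands), for WT (blue) and cKO (red), with 95% Poisson intervals for counting error. Akt1 is higher in deeper cells from 5000 UMIs on, whereas Pik3r1, Inpp5d and Rictor are lower, in both libraries.

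Since the libraries filled these bands unequally (422 WT and 151 cKO cells with 20000 or more UMIs, 310 and 781 under 5000), the 1617 WT and 1414 cKO cells with 5000 to 10000 UMIs were compared alone, a setting chosen after seeing the data. There the log2 ratio of Pik3r1 was -0.65 and passed 1.5-fold lower, as did 5.43% of genes tested. That of Mtor was -0.55, and that of Pik3cd 0.14, with a ratio of 1.12 (0.956 to 1.31). Akt1 moved from 0.04 to 0.30, with a ratio of 1.26 (1.12 to 1.41), and Akt2 from 0.30 to 0.05, with a ratio of 1.04 (0.907 to 1.20). Akt1 and Akt2 both stood above WT in each of the 4 bands, by little for Akt1 at 20000 or more UMIs (92.5 and 94.8 CPM) and by little for Akt2 at 5000 to 10000 (37.6 and 39.2 CPM). Pik3r1 stood below WT in each band. Mtor did so from 5000 UMIs on, but stood at 13.2 CPM in WT (17 UMIs) and 13.9 CPM in cKO (43 UMIs) below that depth.

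Other genes of the pathway were read from 7 lists of 61 genes, of which 36 passed the filter in the Treg class. Of these, 9 lay 1.5-fold higher and 3 lay 1.5-fold lower in cKO, beside 5.54% and 3.84% of all genes tested, and the median log2 ratio was 0.14. The lists were chosen with earlier results of these data known, so these counts cannot measure an excess over all genes. At equal weight of the 4 ranges the count of higher genes was 3, beside 3.96% of all genes tested. Among upstream receptors (8 of 8 passed) 2 lay higher, Icos, a costimulatory receptor that engages PI3K directly, at 897 and 1760 CPM, and the TNF receptor family gene Tnfrsf4, at 2201 and 3320 CPM. Tnfrsf4 passed 1.5-fold in only 9 of 17 alternatives, with a lowest log2 ratio of 0.41. Cd28, the main costimulatory receptor, had a log2 ratio of 0.47, which became 0.23 with the 4 ranges weighted equally. Its ratio was 1.55 in cycling, 1.12 in Gzmb-high, 1.23 in Klf2 or S1pr1 and 0.886 (0.808 to 0.970) in remaining cells. Pdcd1 was the only upstream receptor below WT in the whole class. It stood at 461 CPM in WT and 188 CPM in cKO, with a log2 ratio of -1.27 that lay between -1.44 and -1.18 in 17 alternatives.

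**Figure D5:**
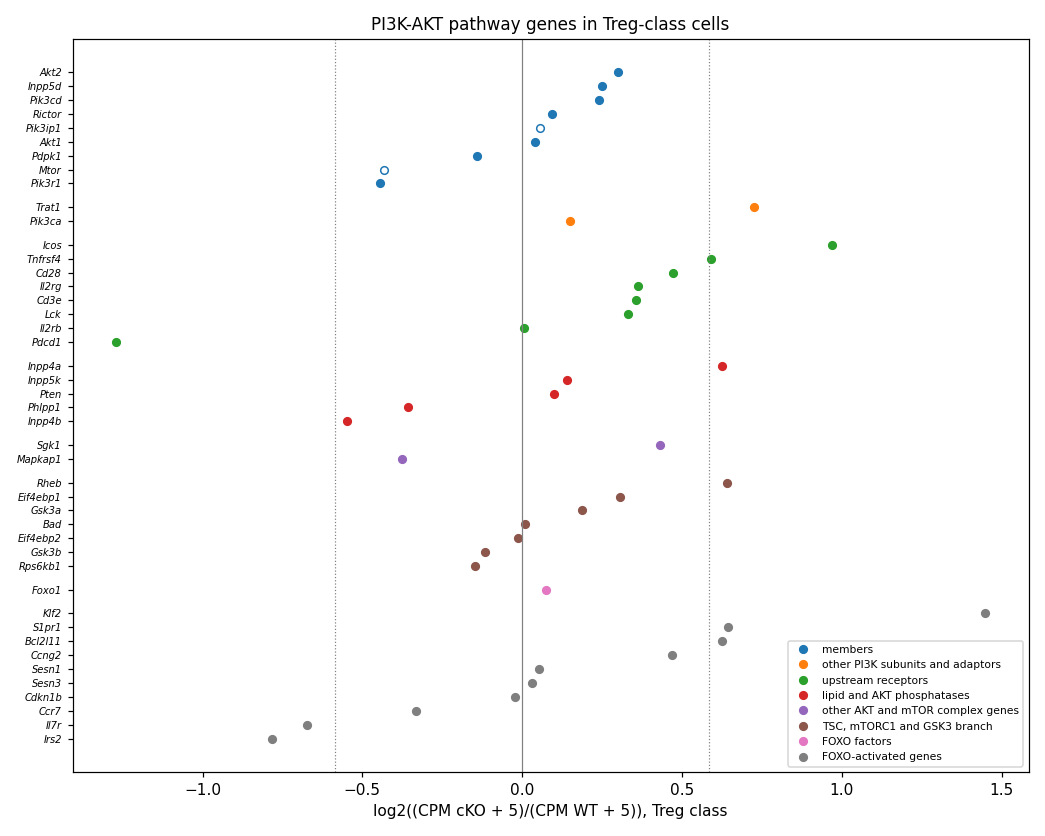
Log2((CPM cKO + 5)/(CPM WT + 5)) in Treg-class cells for the 9 members and other pathway genes that passed a mean of 20 CPM, coloured by list. Open circles are members under that mean, and dotted lines mark 1.5-fold. The members lie between the dotted lines, while Pdcd1, Irs2 and Il7r lie left of them. More genes lie to the right, among them Klf2, Icos, Trat1, Rheb, Inpp4a and Tnfrsf4.

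Pdcd1 stood at 454 CPM in WT and 472 CPM in cKO in the whole CD8 T class, and at 102 and 34.4 CPM in the whole myeloid class. Both classes were mixed, and 60.2% of WT and 32.1% of cKO myeloid cells had a Cd3e or Cd3g UMI. For Pdcd1 the subsets without marks of Tregs or T cells were not read, so the myeloid values cannot be read as expression in myeloid cells. Among the other PI3K subunits and adaptors 2 of 11 genes passed the filter. Trat1, a T cell adaptor that binds the regulatory subunit, stood at 17.3 and 31.9 CPM (log2 ratio 0.72), and Pik3ca, which encodes p110 alpha, at 53.3 and 59.7 CPM (0.15). Among lipid and AKT phosphatases (5 of 7 passed), Inpp4a stood 1.5-fold higher (14.7 and 25.4 CPM) and its relative Inpp4b at 112 and 75.1 CPM (-0.55). Inpp4a passed 1.5-fold in 11 of 17 alternatives. Phlpp1, which removes a phosphate from AKT, had a log2 ratio of -0.36 and Inpp5k 0.14. With the 4 ranges weighted equally these became -0.17 and 0.08.

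Of the other AKT and mTOR complex genes 2 of 9 passed, with Sgk1, a kinase related to AKT, at 0.43 and Mapkap1, a partner of Rictor, at -0.37. At equal weight of the 4 ranges Sgk1 came to 0.15 and Mapkap1 to -0.35. In the TSC, mTORC1 and GSK3 branch (7 of 11 passed) Rheb, the GTPase that activates mTOR, lay 1.5-fold higher, at 124 and 196 CPM, and did so in 13 of 17 alternatives. Eif4ebp1 (0.31), Gsk3a (0.19) and Rps6kb1 (-0.15) lay within 1.5-fold. Their values at equal weight of the 4 ranges were 0.07, 0.16 and -0.06.

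Foxo1, the only FOXO factor of 3 to pass the filter, stood at 108 and 114 CPM in the Treg class (0.07). Of 12 genes known to be activated by FOXO factors 11 passed, and they did not move one way: 4 lay 1.5-fold higher and 2 lower. Klf2, a transcription factor of quiescent T cells, stood at 87.3 and 247 CPM (1.45), which became 0.55 at equal weight of the ranges. Klf2 is also a gene by which the ranges were drawn. The Klf2 or S1pr1 range, at 707 CPM in WT and 887 CPM in cKO, weighs most in the equal-weight value. Within ranges the Klf2 ratio was 3.93 in cycling, 1.75 in Gzmb-high, 1.25 in Klf2 or S1pr1 and 2.44 in remaining cells. Il7r, the interleukin-7 receptor chain, stood at 297 and 184 CPM (-0.67), and Irs2, an adaptor of insulin signalling, at 62.5 and 34.2 CPM (-0.78).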

How the data were processed

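The deposited matrices hold raw UMI counts per gene and barcode, made by the authors; the submitters' processing notes name Cell Ranger 5.0.1 and mm10. Which annotation was used, whether intronic reads counted and whether doublets were removed is not given in the sources used here. Gene coordinates come from GENCODE M21 on the same build. Each group (genotype label) has 1 library, so no p-value was made. UMIs were summed over the cells of a class in each library and scaled to CPM, with exact Poisson intervals for levels, exact conditional binomial intervals for ratios (without the pseudocount) and Clopper-Pearson intervals for shares. Log2 ratios used a pseudocount of 5 CPM, which understates differences of low genes. A gene was called past 1.5-fold if its mean over both sums reached 20 CPM. No doublet caller was run; results were recomputed without the 5% of barcodes with the most UMIs. The sums and intervals were tested on simulated counts (Python 3.11.15, scipy 1.17.1). These were drawn with counting error alone, so the test does not cover variation between cells, animals or libraries.

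Named genes are the 9 members, up to 4 genes per pathway list with the largest absolute log2 ratio among those past 20 CPM, Pdcd1, Jmjd1c, the genes of the class rule and, for the 3 members whose levels ranged most, their 3 nearest genes (not given for Pik3ip1, which had too few UMIs). The members and lists were chosen with earlier results of these data known. One gene that this rule names and one marker are not reported here. Cell classes were counted as the rule gives them, with 4 cKO cells in both the CD8 T and the myeloid class.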

Additional observations from a re-analysis of the deposited data

How the results depend on the processing

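In the Treg class 17 alternatives were run. Pik3r1 (log2 ratio -0.65 to -0.37), Mtor (-0.55 to -0.27), Pdpk1 (-0.24 to -0.10), Akt2 (0.05 to 0.33) and Pik3cd (0.06 to 0.28) kept their sign in all of them. Akt1, Inpp5d, Rictor and Pik3ip1 changed sign in 1 each. The count of members 1.5-fold lower was 0, and 1 in cells with 5000 to 10000 UMIs, where 5.43% of genes tested lay lower. Of other pathway genes, whose lists were chosen with earlier results known, 9 lay 1.5-fold higher (5.54% of all genes tested). The count was 3 with ranges weighted equally (3.96% of all genes). It was 4 with a pseudocount of 20 CPM (3.64%) or in cells with 5000 to 10000 UMIs (5.26%). It was 5 without cycling cells (5.34%) or without ribosomal and mitochondrial genes (3.96%). The last scaling called 5.88% of all genes lower, in place of 3.84%. The CD8 T count of members 1.5-fold lower was 1 (6.78% of genes tested), and 3 in cells without marks of Tregs (24.2%). The myeloid count higher was 1 (4.36% of genes tested). It was 0 with a pseudocount of 20 CPM (2.53%), without ribosomal and mitochondrial genes (3.61%) or without cells of both classes (4.4%). It was 2 with a pseudocount of 1 CPM (5.49%) or classes read after thinning (4.55%). The myeloid count lower was 0 (4.19% of genes tested), and 1 without ribosomal and mitochondrial genes (6.07%) or as a mean over cells (4.34%). Pik3cd was 1 gene higher in CD8 T cells than in Tregs in both libraries, and 0 genes were with a pseudocount of 20 CPM. Causes were not tested. No replicate could be left out with 1 library per group. No paired analysis was possible because each group has 1 library. Depth limited Pik3ip1 most, with 138 and 93 UMIs.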

Other observations

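The levels of 8 of the 9 genes over the 6 sums of 2 libraries and 3 classes were set beside those of 5327 genes whose mean reached 20 CPM, each centred on its own mean of log2(CPM + 5). Pik3r1 ranged most (1.35 on the log2 scale) and Pik3cd 1.02. Pik3ip1 is left out here, since its myeloid sums hold 2 and 9 UMIs. The nearest genes by root mean square difference were Trmt6, Pspc1 and Nap1l1 for Pik3r1 (0.099 to 0.107) and Ppm1h, Pdlim1 and Slc3a2 for Pik3cd (0.146 to 0.152). With 6 sums from 2 libraries, such closeness is a description of these sums.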
